A study of Drosophila melanogaster with 2 samples.

Results

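The 36 genes described here encode homeobox transcription factors that pattern the Drosophila melanogaster embryo and fix the identity of its neurons. They were chosen by name (Ensembl BDGP6 symbols), and all 36 were matched, of 13968 protein-coding genes on the chromosome arms. Sequoia, a zinc finger factor that shapes dendrites and axon targeting in fly neurons, was located around them by ChIP-seq, which recovers and sequences the DNA held by a chosen protein. There was 1 group, with 2 biological replicates: whole embryos of strain seq-GFP, aged 0 to 24 h, from transgenic flies expressing a seq-eGFP fusion, precipitated with an antibody against GFP. No untagged or other condition was among these samples. The labels do not say whether the native seq gene was intact, and whole embryos mix all cell types, so a peak cannot be assigned to neurons or to any other tissue. Peak lists hold no marker with which the labelled tissue could be checked, and where nothing says otherwise the spread between the replicates may be technical.

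A homeobox encodes the homeodomain, a DNA-binding fold that recognises short AT-rich sites. Homeodomain proteins act in combinations: in the nerve cord, genes such as vnd, ind and Dr divide the neuroectoderm into columns, and later LIM, POU and paired-like factors set the transmitter, axon route and targets of single neuron types. Other members of the family shape appendages, gut and eye.

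The conservative set, which the authors made between the replicates, held 4100 peaks on dm6, of which 4099 lay on the arms and were used. The set of replicate 1 alone held 4069 peaks, that of replicate 2 alone 2680, and the set from pooled replicates 5287. The strength of a peak is the authors' signal, which ranks peaks within a list. The summit is the position of highest signal in a peak. A further 113 peaks of the authors' ranked list passed the same reproducibility threshold but were absent from the conservative set, 68 of them on arm 3R and 37 on 2L. None lay within 5 kb of the 36 genes, and the ranks and background shares given here were computed without them. Read depth is unknown.

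The sequences at 7 summits are shown because the results below turn on their base composition and their distance from a transcription start site (TSS). They are 3 of the 5 strongest TSS summits, a TSS and an intron summit of the same gene (zfh1), an intron summit of hth and a summit downstream of Ptx1. Each holds the summit base and 50 bases on either side, from the RefSeq copy of dm6 (Release 6), written 5′ to 3′ on the strand of the gene, with chromosome positions counted from 1. Capitals mark matches on either strand to the GA repeat GAGAGA, the homeodomain core site TAATTA, the Snail site CAGGTG, the proneural E-box CAGCTG and the element ACAGTG.

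Dr TSS summit (chr3R:29556186-29556286, plus strand): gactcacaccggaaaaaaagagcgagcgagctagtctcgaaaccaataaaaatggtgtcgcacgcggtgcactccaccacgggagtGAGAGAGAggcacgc
unc-4 TSS summit (chrX:17768292-17768392, plus strand): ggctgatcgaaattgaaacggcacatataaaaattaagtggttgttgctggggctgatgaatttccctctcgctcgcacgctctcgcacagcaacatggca
Ptx1 TSS summit (chr3R:30912516-30912616, plus strand): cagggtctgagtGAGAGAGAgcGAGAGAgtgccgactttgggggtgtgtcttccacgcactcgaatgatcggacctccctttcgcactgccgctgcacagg
zfh1 TSS summit (chr3R:30765702-30765802, plus strand): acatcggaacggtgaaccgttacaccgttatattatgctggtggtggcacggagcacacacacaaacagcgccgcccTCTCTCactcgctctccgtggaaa
zfh1 intron summit (chr3R:30781740-30781840, plus strand): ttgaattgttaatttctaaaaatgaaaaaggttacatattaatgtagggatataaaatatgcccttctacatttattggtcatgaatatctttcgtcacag
hth intron summit (chr3R:10597715-10597815, minus strand): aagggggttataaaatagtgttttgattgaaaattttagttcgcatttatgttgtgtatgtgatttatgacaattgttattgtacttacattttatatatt
Ptx1 downstream summit (chr3R:30934078-30934178, plus strand): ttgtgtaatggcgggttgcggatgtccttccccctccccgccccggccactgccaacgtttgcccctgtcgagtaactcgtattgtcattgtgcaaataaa

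GC content was 55.4% at Dr, 48.5% at unc-4, 60.4% at the Ptx1 TSS and 55.4% at the zfh1 TSS. It was 26.7% in the zfh1 intron and 23.8% in the hth intron, while the summit downstream of Ptx1 had 55.4%. Over all 47 summits of these genes away from TSSs the median was 51.5%, well above the intron windows shown. GAGAGA was found at Dr, the Ptx1 TSS and the zfh1 TSS, and none of the 5 motifs was found in the other 4 windows.

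In the conservative set, 22 of the 36 genes (61.1%) had a Sequoia summit within 500 bp of an annotated TSS, against 13.8% of all protein-coding genes. In the set of replicate 2 alone the count was 14 of 36, against 10.1%. With only the 5′-most TSS of each gene the conservative count was 18 of 36, and no background share was computed for that setting. The TSS summits of ap, Lim3, vnd and dve were at a start inside the gene. When the gene body and 5 kb on either side were added, 31 of 36 had a summit (86.1%), against 39.9%. The 36 genes are long, with a median span of 15505 bp against 2164.5 bp for all protein-coding genes, and a longer span can hold more summits. Among members spanning 10 kb or more, 13 of 21 had a TSS summit, against 25.3% of all such genes, and 20 of 21 had one in the wider window, against 60.4%. Among shorter members, 9 of 15 had a TSS summit, against 11.9%, and 11 of 15 one in the wider window, against 36.5%. Of members with a single TSS position, 15 of 25 had a summit there, against 9.35%. These counts are given beside their backgrounds without a test, since the genes were listed with earlier results of these data known.

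**Figure D1:**
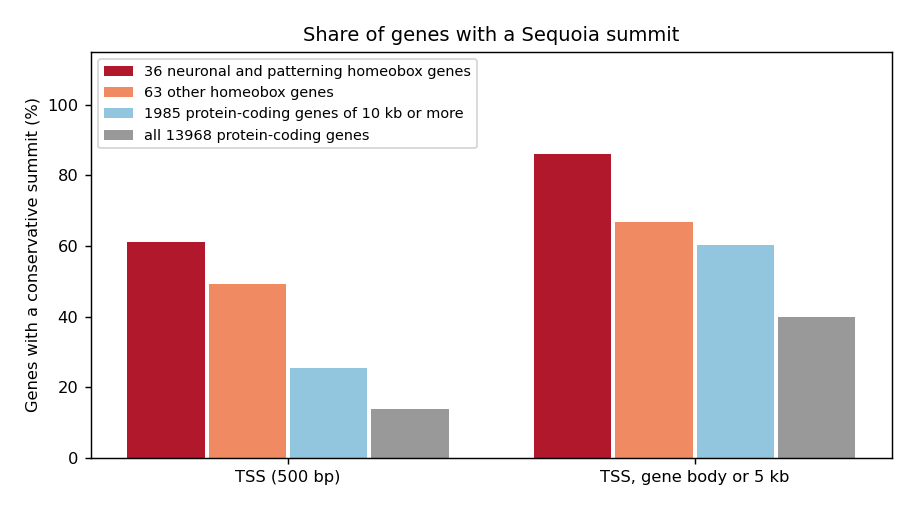
Bars give the percentage of genes with a conservative summit at a TSS (left) and at a TSS, in the gene body or within 5 kb (right), for the 36 homeobox genes, 63 other homeobox genes, 1985 protein-coding genes of 10 kb or more and all 13968 protein-coding genes. The 36 genes reached 61.1% and 86.1%, against 13.8% and 39.9% of all protein-coding genes.

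The 36 genes held 71 summits in all, each belonging to a single gene of the list. Of these, 24 lay at a TSS, 21 in the gene body, 15 in the upstream flank and 11 in the downstream flank. By annotation 42 were intergenic, 28 intronic and 1 in a noncoding exon. Summits had a density of 0.639 per 10 kb of searched sequence (exact Poisson 95% interval 0.499 to 0.807, counting error only), against 0.340 per 10 kb for all protein-coding genes of 10 kb or more and 0.401 for all protein-coding genes. A summit in the gene body or a flank, outside the TSS windows, was present in 22 of the 36 genes, against 33.0% of all protein-coding genes. The peaks of 8 summits overlapped a stronger peak of the same set, which leaves 63 separate regions. Among the members, 14 held 3 or more summits, against 6.49% of all protein-coding genes. Of the 21 members spanning 10 kb or more it was 13, against 22.8% of all such genes. Counted as separate regions, 8 members held 3 or more, against 5.15%, and in the set of replicate 2 alone 4 members held 3 or more summits, against 2.85%. That set placed 36 summits at these genes in all.

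**Figure D2:**
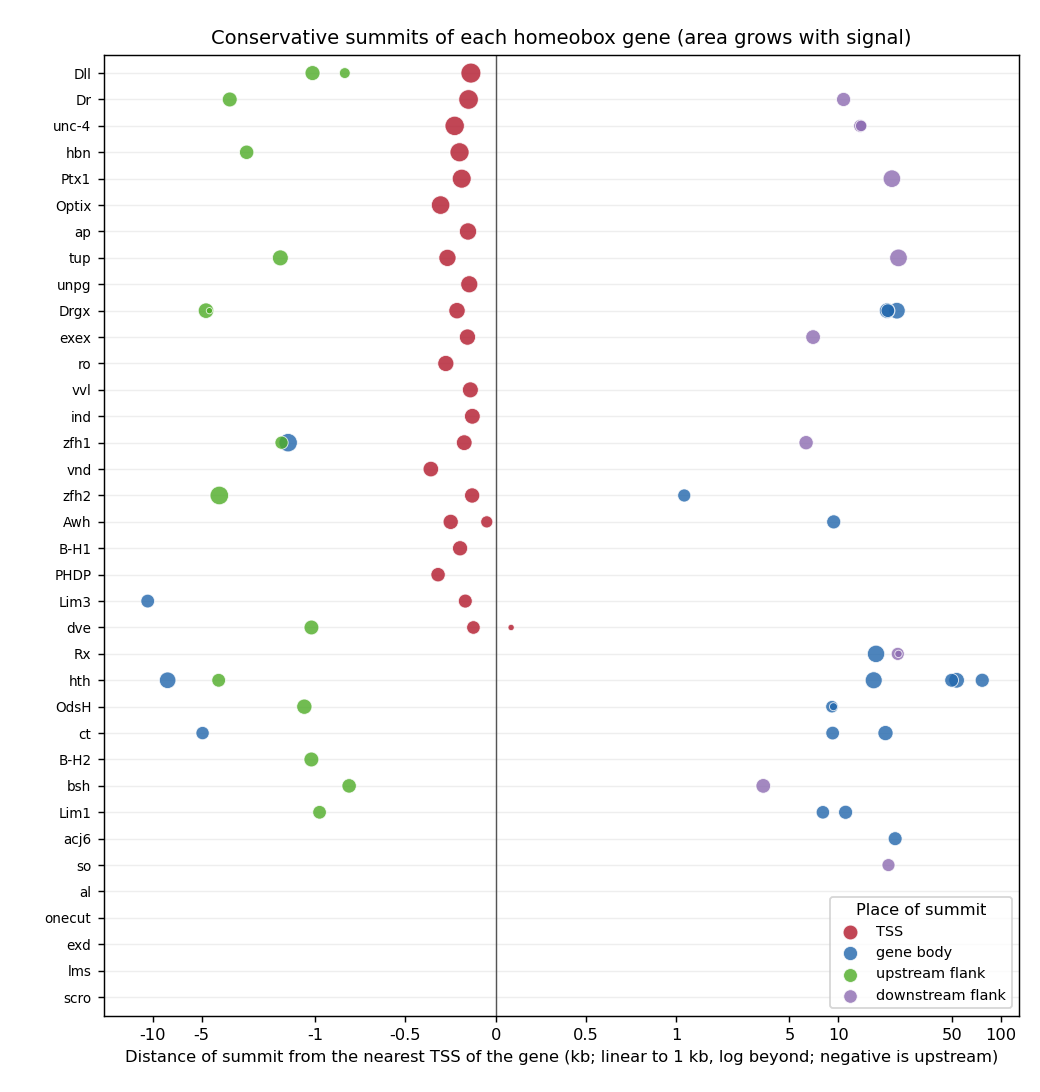
Each row is a gene, ordered by the signal of its strongest TSS summit, and each point is a conservative summit at its distance in kb from the nearest TSS of that gene (linear to 1 kb, logarithmic beyond), coloured by place. The 22 genes with a TSS summit fill the column left of 0, and 5 genes at the bottom have no summit.

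The strongest TSS summits belonged to regulators of limbs, neuroectoderm and brain. At Dll, which specifies the distal limb, the peak chr2R:24814585-24814795 (FBgn0000157) had a signal of 413 and rank 181 of 4099 (188 of 4212 with the absent ranked peaks put back), with its summit 137 bp upstream of the TSS. In the libraries' own lists it had 279 in replicate 1 and 127 in replicate 2. At Dr, which marks the dorsal column of the neuroectoderm, the peak chr3R:29556139-29556359 (FBgn0000492) had 383 and rank 214, with 211 in replicate 1 and 170 in replicate 2. No member reached the 100 strongest peaks of the set. Among the 500 strongest were 8 of the 71 summits, near the share of 500 in 4099 for all peaks.

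Paired-like genes came next. At unc-4, named after a worm regulator of motor neuron identity, the peak chrX:17768264-17768462 (FBgn0024184) had 366, with 255 in replicate 1 and 105 in replicate 2. At hbn, a gene of the developing brain, the peak chr2R:20961007-20961216 (FBgn0008636) had 348, with 251 in replicate 1 and 93.9 in replicate 2. At Ptx1, a relative of the vertebrate Pitx genes, the peak chr3R:30912469-30912718 (FBgn0020912) had 336, with 211 in replicate 1 and 125 in replicate 2. All 3 lay 188 to 227 bp upstream of the TSS, and replicate 1 was the higher library at each. Drgx, a relative of the vertebrate DRG11 gene of sensory neurons, had 187.5 at its TSS, with 144 in replicate 1 and 52.6 in replicate 2. PHDP, the weakest of the class, had 112. Rx, OdsH and al had no TSS summit, so 5 of the 8 paired-like genes had one.

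Among LIM genes, which encode homeodomains joined to LIM zinc fingers and direct motor neuron and interneuron identity, 4 of 5 had a TSS summit. At ap, which sets dorsal wing identity and the axon route of interneurons, the peak chr2R:5726790-5727179 (FBgn0267978) had 232, with 171 in replicate 1 and 54.3 in replicate 2. At tup, the fly islet gene of motor neurons, the peak chr2L:18881503-18881601 (FBgn0003896) had 228, with 140 in replicate 1 and 98.5 in replicate 2. They ranked 615 (ap) and 635 (tup) of 4099 in the conservative set, while in replicate 2 tup was well above ap. Awh followed with 140 and Lim3, a partner of islet in motor neurons, with 98.3, at a start inside the gene. Lim1 had none.

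The NK and other Antp-related genes formed the largest class, with 8 of 12 at their TSS. After Dll and Dr came unpg, a gene of the nerve cord and brain, whose peak chr2R:9194864-9195253 (FBgn0015561) had 223, with 168 in replicate 1 and 55.7 in replicate 2. At exex, the fly Hb9 gene of ventrally projecting motor neurons, the peak chr3L:7947835-7948224 (FBgn0041156) had 181, with 129 in replicate 1 and 47.8 in replicate 2. At ro, a photoreceptor gene, the peak chr3R:26881252-26881641 (FBgn0003267) had 177, with 125 in replicate 1 and 44.3 in replicate 2. Its summit lay 276 bp from the ro TSS and 287 bp from that of T48, and the data give no means to choose between the genes. The column genes ind (161) and vnd (153) also had a TSS summit, as did B-H1 (138), a gene of sensory organs and eye, whereas its paralogue B-H2 did not. All 3 column genes of the neuroectoderm, vnd, ind and Dr, thus carried a TSS summit, that of vnd at a start inside the gene.

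In the other classes, Optix, an eye and forebrain gene of the SINE class, had a peak at chr2R:8030872-8031060 (FBgn0025360) with 307, with 176 in replicate 1 and 128 in replicate 2. Its class mate so had none. The zinc finger homeobox genes zfh1, active in mesoderm and motor neurons, and zfh2, active in neurons, had 160 and 140. The POU gene vvl, which acts in tracheal cells and neurons, had 170, while acj6, which sets the identity of olfactory neurons, had none. In the CUT group dve, a midgut gene, had 88.1, at its downstream promoter inside the gene, and ct and onecut had none. Neither TALE gene, hth nor exd, had a TSS summit. Both encode cofactors of Hox proteins, and hth carries exd into the nucleus.

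Over the 24 TSS summits the median signal was 173.4, against 129.0 for the 1700 TSS summits of all protein-coding genes, and 19 of the 24 lay above that value. The range was 4.09 to 412.9. The lowest was a second summit at dve whose peak overlapped the stronger one. Over the 22 genes the median of the strongest TSS summit was 179.3, which is also the value for the other homeobox genes described below.

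TSS summits of these genes lay at a narrow distance from the start. Of the 24, 23 were upstream of the nearest TSS of the gene, at a median offset of -171 bp, against 75.7% upstream and a median of -114 bp for all protein-coding TSS summits. Between 100 and 300 bp upstream lay 19 of the 24 (79.2%), against 43.1% of all. The interval from 100 to 200 bp upstream alone held 14, and the last 100 bp before the TSS held 1 (4.17%), against 21.5% of all. The single downstream summit was the second one at dve, at 86 bp.

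**Figure D3:**
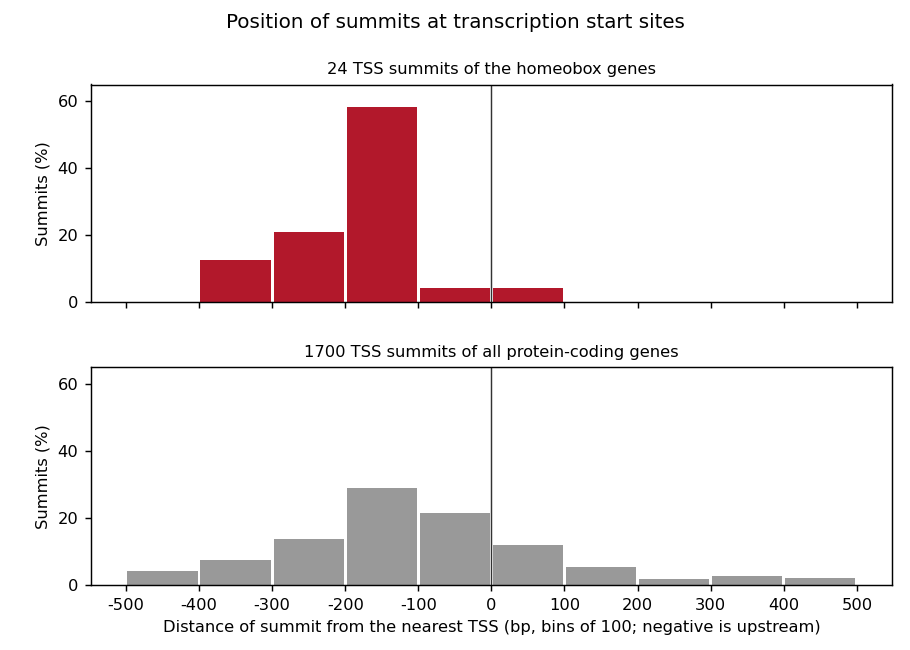
Bars give the percentage of TSS summits in bins of 100 bp by distance from the nearest TSS, for the 24 summits of the homeobox genes (top) and 1700 of all protein-coding genes (bottom). The homeobox genes have 58.3% of their summits between 100 and 200 bp upstream, against 28.9% of all.

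Outside the TSS windows, 47 summits lay 812 to 76954 bp from the nearest TSS of the gene, at a median distance of 9131 bp. Their median signal was 104.4, against 117.1 for all conservative summits. The strongest was 3897 bp upstream of zfh2, at chr4:497817-497981, with 310 (204 in replicate 1 and 116 in replicate 2), which is higher than the summit at the zfh2 TSS. The next lay in an intron of zfh1, at chr3R:30781666-30781877, with 299 (158 in replicate 1 and 139 in replicate 2), also above the TSS summit of that gene. A summit downstream of tup, at chr2L:18857598-18857987, had 253 (122 in replicate 1 and 134 in replicate 2), but lay in an intron of CG10602 and 114 bp from a TSS of that gene.

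Further strong summits away from starts were downstream of Ptx1 (chr3R:30934007-30934199, 248.5, with 162 in replicate 1 and 80.0 in replicate 2) and in an intron of Rx (chr2R:20933621-20934010, 238, with 166 in replicate 1 and 72.0 in replicate 2). Rx is a regulator of brain development, and this intron summit lay 17063 bp into a gene that had no TSS summit. In hth an intron held a summit at chr3R:10597570-10597959 with 219 (114 in replicate 1 and 102 in replicate 2). With no summit at its start, hth had 6 in total, 5 of them inside the gene and 1 upstream. Drgx also had 6 summits: 1 at its TSS, 3 in introns 19968 to 22939 bp from the start and 2 upstream. For 20 of the 71 summits another gene's TSS was nearer than any of the member's own, so a place near a member does not assign a summit to it.

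Of the 14 genes without a TSS summit, 9 had summits elsewhere. In 4 of them a summit lay just outside the window or close to it, at 812 bp upstream for bsh (signal 112), 976 bp for Lim1 (90.6), 1056 bp for B-H2 (127) and 1167 bp for OdsH (142). The gene bsh specifies neuron types of the optic lobe. In ct, which acts in sensory organs and dendrites, 3 summits lay in introns (82.0 to 139), and acj6 had 1 intronic summit (98.2). The only summit of so was in its downstream flank (74.9), 995 bp from the TSS of CG11123. The other 5 genes had none in the conservative set: exd, al, a gene of distal appendages, lms, a muscle gene, onecut and scro, an NK gene of the brain. On arm 3L the last conservative peak ended at position 22909978, and scro lies beyond it, from 24724162.

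In the authors' longer ranked list, which also holds peaks past no threshold, the TSS windows of these 14 genes were weakly marked. The irreproducible discovery rate (IDR) estimates how likely a peak is not to repeat between libraries, and 0.01 was the highest IDR of a conservative peak when rounded. The strongest ranked peak at the TSS had an IDR of 0.0301 at so, 0.0542 at acj6 and 0.0769 at ct. It had 0.127 at B-H2, 0.162 at hth and values from 0.422 to 0.687 at bsh, lms, onecut, OdsH, al, Rx and Lim1. No ranked peak had its summit in the TSS windows of exd or scro. The lowest signal of these was 32.7 (OdsH) and the highest 85.0 (so), with 81.6 at onecut. Of these genes, so and onecut had a TSS summit in the set from pooled replicates.

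The replicates differed in how much of this group they held. In the set of replicate 1 alone 25 of the 36 genes had a TSS summit, against 14.3% of all protein-coding genes in that set. As given above, 14 had one in the set of replicate 2 alone. Lim1, Rx and so had a TSS summit in replicate 1's own set and none in the conservative set. Conversely, Lim3, zfh1, zfh2, B-H1, PHDP, ro, vnd and ind had one in the conservative set and none in that of replicate 2. All 24 conservative TSS summits overlapped a peak of replicate 1's set and 16 overlapped one of replicate 2's. Over all 71 summits, 57 (80.3%) were in the set of replicate 1, against 73.6% of all conservative peaks, and 36 (50.7%) in that of replicate 2, against 59.7%. Summits of at least 100 in signal were in both sets in 29 of 47 cases, and weaker ones in 4 of 24.

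The summits of these genes also leaned towards replicate 1 in signal. At the 24 TSS summits the median log2 ratio of replicate 1 to replicate 2 was 1.06, against 0.22 at all protein-coding TSS summits and 0.21 (SD 0.59) over all conservative peaks. Values ran from -0.44 at dve to 1.91 at zfh1. Replicate 1 was higher at 22 of the 24, against 64.8% of all conservative peaks. The second summits of dve and Awh take a replicate value from the same replicate peak as the first, so the 24 ratios are not all separate measurements. The ratio is read against the median of all peaks, since no scaling between the libraries is stated. A log2 ratio of 1 or more was found at 12 of the 24 TSS summits, against 11.4% of all protein-coding TSS summits, and at 25 of the 71 summits (35.2%), against 10.9% of all. Among the 71, summit pairs at Drgx, Dll, OdsH, unc-4 and Rx also share replicate values. Both summits of the upstream Drgx pair are among the 25. The zfh1 TSS summit had 128 in replicate 1 and 34.1 in replicate 2, and that of dve 35.9 in replicate 1 and 48.6 in replicate 2. There are 2 libraries only, so the ratio is a value with no test.

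**Figure D4:**
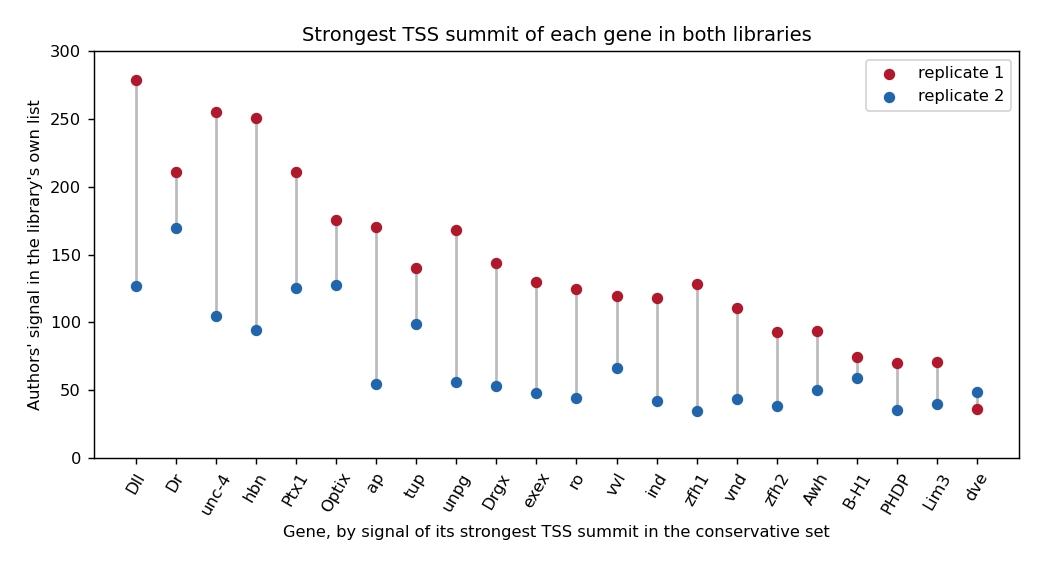
Points give the authors' signal of the strongest TSS summit of each of 22 genes in the list of replicate 1 and in that of replicate 2, joined by a line. Replicate 1 is the higher library at every gene but dve, against 64.8% of all conservative peaks.

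Base composition moved with both the group and the ratio. The windows around TSS summits of these genes, cut as for the printed sequences, had a median GC content of 55.4%, against 36.6% at all protein-coding TSS summits. Of all 71 summits, 44 (62.0%) had 50% GC or more, against 18.6% of all conservative summits. Outside the TSS windows it was 25 of 47 (53.2%), against 17.4% of all conservative summits not at a protein-coding TSS. The same held for the promoters whether or not they were bound: in windows of the same length centred 171 bp upstream of the 5′-most TSS, the 36 genes had a median of 55.0%, against 34.7% for the other protein-coding genes. Within the group it was 55.9% for the 22 genes with a TSS summit and 46.5% for the 14 without.

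At the homeobox genes the median log2 ratio of replicate 1 to replicate 2 was 0.16 under 40% GC (15 summits), 0.70 from 40% to under 50% (12 summits) and 0.81 at 50% or more (44 summits). Among all conservative summits it was 0.045, 0.45 and 0.70 in the same order of classes. At TSS summits of 50% GC or more the medians were 0.90 for the homeobox genes (19 summits) and 0.75 for all protein-coding genes (346 summits), and 47.4% of the homeobox summits had a log2 ratio of 1 or more, against 30.4%. From 40% to under 50% the medians were 1.28 for the homeobox genes (4 summits) and 0.44 for all (338 summits). Under 40% the single homeobox TSS summit had 0.99, against a median of 0.03 (1016 summits). The classes keep summits that share a replicate value. At Drgx the upstream pair puts the same ratio, 1.37, into the lowest and the highest class. The part of base composition in the replicate ratio was not tested.

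**Figure D5:**
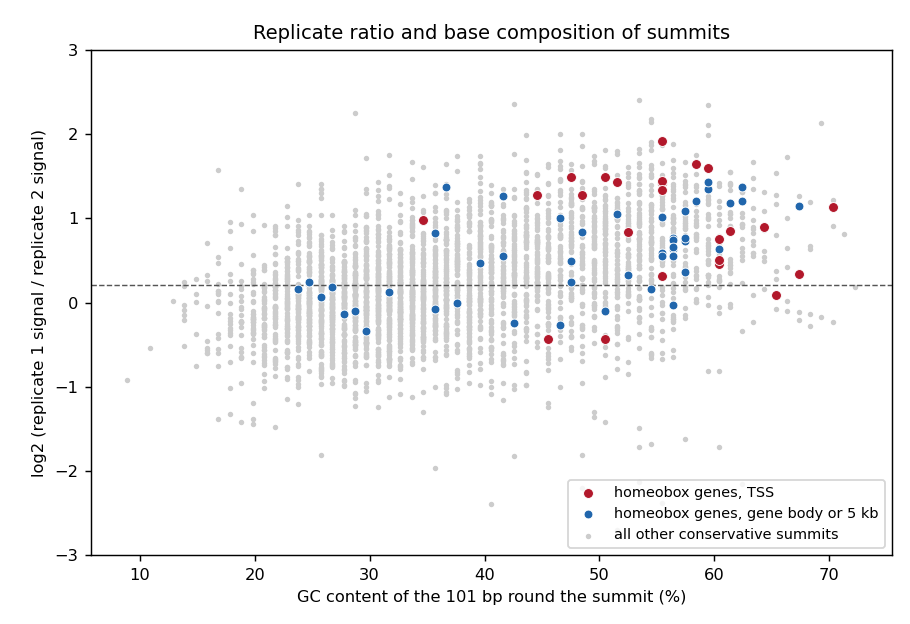
Each point is a conservative summit, placed by the GC content of its window (50 bp on either side) and by the log2 ratio of replicate 1 to replicate 2 signal, with homeobox TSS summits in red, their other summits in blue and all others in grey. The dashed line is the median of all, 0.21, and the red points lie mostly to the right and above it.

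By promoter GC, the homeobox genes had a TSS summit in 2 of 5 under 40%, against 14.5% of protein-coding genes in that class. From 40% to under 50% it was 5 of 10, against 11.6%, and at 50% or more 15 of 21, against 14.1%. The background lay between 11.6% and 14.5% in these classes. The class was taken at the 5′-most TSS, whereas a summit at any TSS of the gene was counted. The part of promoter GC in the share of genes with a TSS summit was not tested.

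Some windows around these summits held the GA repeat, as in the Dr and Ptx1 sequences printed above. The element GAGAGA, bound by the GAGA factor Trl, was sought on both strands and was present in 8 of 24 TSS windows (33.3%), against 7.82% of all protein-coding TSS windows. It was in 17 of all 71 windows (23.9%), against 7.42% of all conservative windows. At 50% GC or more it was in 13 of 44 (29.5%), against 17.2% of all. With 200 bp on either side of the summit it was in 12 of 24 TSS windows, against 29.9%. In promoter windows of the same length as the printed sequences it was in 6 of 36 (16.7%), against 4.52% of the other protein-coding genes. The members with it at a TSS summit were Dr, hbn, Ptx1, zfh1, vnd, zfh2, B-H1 and dve. Away from starts, the intron window of acj6 held GAGAGA from 16 overlapping positions, a long GA repeat.

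CAGCTG, an E-box that proneural proteins can bind, was in 4 of 24 TSS windows (16.7%), against 4.59% of all protein-coding TSS windows, namely at Optix, ap, unpg and Lim3. That difference depended on the window: with 100 bp on either side of the summit it was 5 of 24 (20.8%), against 11.6%, and with 200 bp 7 of 24 (29.2%), against 27.1%. TAATTA, the core site of many homeodomains, was in 3 of all 71 windows (4.23%), against 8.20%. CAGGTG, a site of Snail family proteins, was in 2 of 71 (2.82%), against 2.44%. ACAGTG, which had come to notice in earlier results of these data, was in 3 of 71 (4.23%), against 7.25%, and in 0 of the 24 TSS windows, which allows a share of up to 12.5%, against 6.94% of all protein-coding TSS windows. With 100 bp on either side it was in 0 of the 24, against 17.2%, and with 200 bp in 1 of the 24 (4.17%), against 30.1%. Base composition was not matched in these shares, apart from that for GAGAGA at 50% GC or more. A match describes the letters of the window and is not evidence of binding by any factor.

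Homeobox genes outside the list served as the nearest comparison. A TSS summit was present in 22 (61.1%) of the 36 genes, against 31 (49.2%) of 63 other homeobox genes, among them the Hox, Pax and NK cluster genes. In the wider window it was 31 (86.1%), against 42 (66.7%). Span was not matched between these groups, and the other homeobox genes had the lower median span. The 6 strongest TSS summits among the others were at cad (749), NK7.1 (534), Dfd (463), ems (353), CG11085 (350) and tin (345), so 3 were stronger than Dll, the strongest of the 36. The median log2 ratio of replicate 1 to replicate 2 was 1.06 at the TSS summits of the 36 genes, with 12 of 24 at 1 or more, against 0.91 and 14 of 32 at those of the other homeobox genes. The difference between these groups was not tested.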

How the data were processed

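The 2 libraries form 1 group, and each peak list was tied to its library by the deposited records. The authors deposited thresholded and ranked peak lists on dm6, per the file headers of the text files beside them. Each peak's signal was deposited by the authors as their caller gave it, against 1 control alignment. The ranked lists give the global IDR as -log10, deposited by the authors and capped. The caller and aligner are not given in the sources used here. No rescaling between libraries is stated. The control, the reads and the ranked list behind the pooled set were not analysed here, and in each ranked list 8 further columns with values were left aside.

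Summits were set against Ensembl genes (BDGP6.54, release 115, no transposable elements) and RefSeq's Release 6 sequence, whose arm lengths no peak or gene exceeded. A TSS summit lay within 500 bp of any transcript start. Replicate values come from the peak in each library's ranked list that overlapped by at least 1 bp and had the nearest summit, not from the columns of the list made between them. Figures were drawn with matplotlib 3.10.9 and values computed in Python 3.11.15 with scipy 1.17.1, pandas 2.3.3 and numpy 2.4.6. The counting of summits per gene and the motif search were tested on simulated data, and the other steps were not. Genes, lists, motifs and named summits (the 12 strongest at TSSs, the 6 strongest elsewhere and, outside the list, the 6 strongest genes) were chosen with earlier results of these data known, so no test was run. Names outside that rule were picked with their values in view. The alternatives that leave out overlapping summits or shared starts, match replicate peaks by strength, class by GC or repeat the settings for other homeobox genes or for genes with 3 or more summits were added after seeing the data.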

Additional observations from a re-analysis of the deposited data

How the results depend on the processing

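In all, 54 totals, medians and shares were recomputed over the 36 genes or the other homeobox genes. Of these, 46 stayed within 1.5 times the count, or within the spread or interval of the value. Among them were those for every change of TSS definition or flank and for the pooled set. The 46 also include values with the absent ranked peaks put back or each summit counted once. Those could not change for the 36 genes, since no absent peak lay within 5 kb and no summit was shared. Counts for single genes moved more. With a flank of 2 kb, 10 of the 36 genes had fewer summits, with 10 kb 12 had more, and in the pooled set 4 had fewer and 16 more. Beyond 1.5 times, the counts of 6, 6 and 11 genes moved under these settings, those of 19 at an IDR of 0.001, of 9 in the set of replicate 1 alone and of 21 in the set of replicate 2 alone, against none with the absent peaks put back. With those peaks the background shares were 14.1% for a TSS summit and 40.3% for the wider window. In the set of replicate 2 alone, 14 genes had a TSS summit and 36 summits were assigned. With either replicate left out, the ranges were 14 to 25 genes with a TSS summit, 21 to 30 genes with any summit, 36 to 78 summits and 23 to 39 other homeobox genes. For genes with any summit, no background share was computed in the sets of single replicates. At an IDR of 0.001, 34 summits were assigned. Motif shares grew with the window, which then holds more sequence. GAGAGA was in 38.0% of homeobox windows with 100 bp on either side of the summit, against 15.7% of all conservative windows, and in 45.1% with 200 bp, against 28.5%, a smaller ratio than in the shorter windows. With 200 bp, CAGCTG was in 21.1%, against 21.2% of all, so the excess seen in the short windows was gone. At that length CAGGTG was in 11.3%, against 10.9%, while TAATTA was in 14.1%, against 22.9%, and ACAGTG in 9.86%, against 29.6%. The genes with 3 or more summits were 4 at an IDR of 0.001 and 13 in the set of replicate 1 alone. No background share was computed for that count at either setting. No paired analysis was possible because the labels give a single group. Read depth is unknown, and 2 libraries limit what the replicate ratio can show.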

Other observations

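Some neighbouring genes of the list lie within 100000 bp of each other. The sequence between 3 of 4 such pairs held summits, in 2 separate regions each. No share was computed for other intervals of like length, so these counts have no background. Between B-H2 and B-H1, a pair of paralogues with 73302 bp and no protein-coding gene between them, 2 summits lay: that at the B-H1 TSS and another 15733 bp past the end of B-H2, outside both 5 kb flanks. Its signal was 126 in the conservative set, 84.4 for replicate 1 and 37.7 for replicate 2. Between unc-4 and OdsH, 12301 bp apart, 3 summits lay, 1 of them in a peak that overlaps a stronger one, the strongest 1167 bp upstream of OdsH with 142 (82.8 in replicate 1 and 55.1 in replicate 2). Between Rx and hbn, 17637 bp apart, 3 summits lay, 1 of them again in an overlapping peak and 1 outside both flanks with 95.9. Between zfh2 and onecut, on chromosome 4 and 57680 bp apart, none lay, although zfh2 itself had 3.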
